A study of Mus musculus with 4 samples.

Results

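The mouse genes named Zfp9 with 2 further digits were examined in differentiating embryonic stem cells. They were chosen by their symbol, with earlier results of these data known. Of the 55487 genes of the count table, 64 carried such a symbol, from Zfp930 to Zfp995. RNA-seq had been done on wild-type cells of the line ES-E14TG2a (E14-Tg2a), a feeder-free mouse embryonic stem cell (mESC) line, with 2 libraries at d2 and 2 at d4 of a cardiogenic differentiation. At d2 the cells had grown for 48 h as embryoid bodies in serum-free medium. Before d4 the bodies were taken apart and left to reaggregate for 40 h, in medium that held Activin A at 8 ng/ml, BMP4 at 0.5 ng/ml and VEGF at 5 ng/ml, so time, reaggregation and added factors changed together and cannot be told apart. All 4 libraries came from 1 line, and the study describes the 2 replicates as coming from 2 independent differentiation experiments. The comparison asks how the levels of these genes differed between d2 and d4.

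Most genes of this name encode C2H2 zinc finger proteins, in which a run of small zinc-binding loops reads DNA, often behind a KRAB domain. The KRAB domain binds TRIM28 (KAP1), which brings in the histone methyltransferase SETDB1 and HP1 proteins. The targets best known for these proteins are endogenous retroviruses and other transposable elements, which TRIM28 and SETDB1 keep silent in embryonic stem cells. The genes multiply by local duplication, so close relatives often stand side by side. ZFP932, for example, is known to bind endogenous retroviruses, and ZFP982 has been tied to the embryonic stem cell state. For most of the others no role is given here.

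The libraries held 11397439 to 16851485 counts, and 3 counts corresponded to 0.177 to 0.254 counts-per-million (CPM). The 64 genes took 0.0481% of the counts in d2 replicate 1, 0.130% in d2 replicate 2, 0.0290% in d4 replicate 1 and 0.0685% in d4 replicate 2. The stage labels were checked by lists of markers, also chosen with earlier results of these data known. The 6 pluripotent and epiblast markers summed to 1243 to 1440 CPM at d2 and to 22.2 to 24.0 CPM at d4, and all 6 fell. The 6 endothelial markers summed to 11.2 to 13.5 CPM at d2 and to 833 to 1090 CPM at d4, and all 6 rose, as did 6 of 6 streak and mesoderm and 5 of 5 blood markers. Of 3 cardiomyocyte markers tested, 1 rose and 2 fell, while 2 of 2 endoderm markers rose and 3 of 3 neuroectoderm markers fell. These lists moved with the day of every result below, and their part in it was not tested. In bulk RNA, fewer cells with a transcript and less of it per cell cannot be told apart.

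The replicates of one day differed for these genes. Zfp990, the member with the largest gap, had 20.5 CPM in d2 replicate 1 and 185 CPM in d2 replicate 2, then 7.62 CPM in d4 replicate 1 and 52.8 CPM in d4 replicate 2. Replicate 2 was thus 9.02 times replicate 1 at d2 and 6.93 times replicate 1 at d4. Within replicate number 1, d2 was 2.69 times d4, and within number 2 it was 3.51 times d4. The days overlapped, since d4 replicate 2 exceeded d2 replicate 1. Zfp994, Zfp985 and Zfp945 came next, in this order, with replicate 2 above replicate 1 by 2.74 and 2.62 on the log2 scale in Zfp994 and Zfp985, averaged over the days, against 2.97 in Zfp990.

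This difference led to the choice of comparing days within a replicate number, so it is given as a description. Of 55 members tested, 47 (85.5%) were higher in replicate 2 on both days, against 25.8% of all genes tested. The median difference was 1.40 at d2 and 1.38 at d4 on the log2 scale for the members, and -0.0045 and -0.093 for all genes. The members' transcripts were poor in G and C: their GC content had a median of 38.8%, with a range of 35.2% to 54.3%, against a median of 50.1% for all genes. Across the 55 members, GC content and the replicate difference had a rank correlation of -0.65 at d2 and -0.56 at d4; these genes share libraries and base composition and are not independent. Zfp954 and Zfp956, whose GC contents of 51.1% and 54.3% were the highest of the 55, were the only 2 members lower in replicate 2 on the mean of the days.

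**Figure D1:**
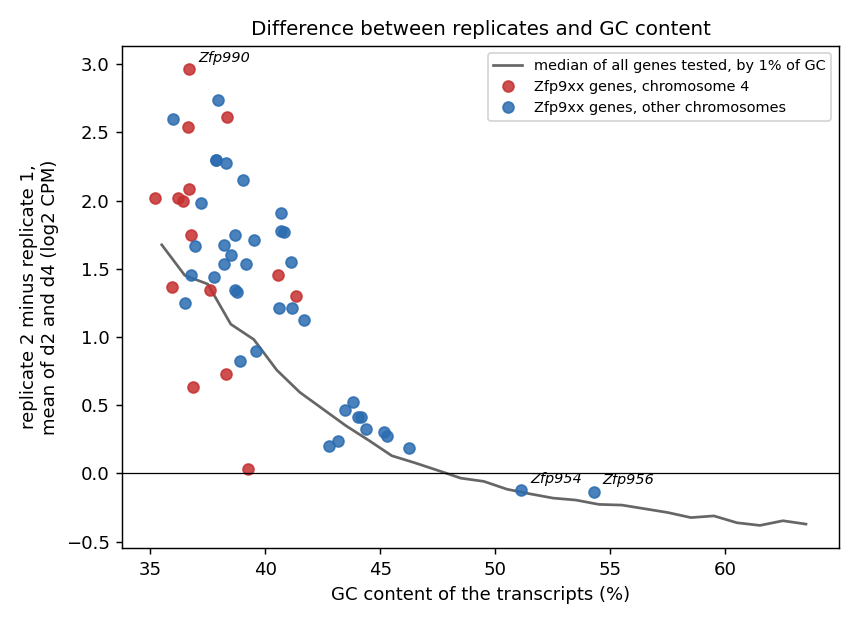
Difference of replicate 2 from replicate 1 (mean of d2 and d4, log2 CPM, vertical axis) against the GC content of the transcripts (%, horizontal axis), with 1 point for each of the 55 tested members and a grey line for the median of all genes tested in steps of 1% GC. Zfp990 sits at the top at 2.97, and Zfp954 and Zfp956 at the right end below 0.

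Most members had lower levels at d4 than at d2. The log2 fold change of d4 over d2 was below 0 for 45 of the 55 members tested, with a median of -0.97, against -0.027 for all 14932 genes tested and -0.21 for 283 genes named Zfp with another number. In the edgeR quasi-likelihood test with day as the only term, 8 members fell at a Benjamini-Hochberg adjusted p under 0.01, beside a background of 11.3% of all genes. They were Zfp936, Zfp941, Zfp956, Zfp972, Zfp978, Zfp980, Zfp981 and Zfp982. No member rose by edgeR, where 12.9% of all genes did; 1 member rose at an unadjusted p under 0.05, and DESeq2 and limma voom called 0 as well. The other 47 did not pass, Zfp951 by the narrowest margin (adjusted p = 0.0101). With either d2 library left out, d2 was 1 library assumed to vary as d4 did, and edgeR called 0 members lower without d2 replicate 1 and 0 without d2 replicate 2, where 18 and 11 were lower at an unadjusted p under 0.05. Among the other Zfp genes it also called 0 in both cases, with 44 and 28 lower at an unadjusted p under 0.05. The fold changes of the 8 stayed below 0, for example -3.09 and -2.67 in Zfp941 and -1.55 and -1.82 in Zfp956. The median log2 fold change of the members was -0.46 without d4 replicate 1 and -2.05 without d4 replicate 2.

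Within the replicate numbers more members passed. In 42 of 55 members d4 was below d2 in both numbers (43.5% of all genes were), in 6 it was above d2 in both (41%), and in 7 the numbers went opposite ways. The median difference was -0.97 within number 1 and -0.99 within number 2, and the differences of the 55 members in the 2 numbers had a rank correlation of 0.82, across genes that share the 4 libraries. With the replicate number as a term beside day, edgeR called 35 members lower (23.4% of all genes) and 2 higher (23.3%), Zfp948 and Zfp963, and all 8 members named above were among the 35. No source used here says that a shared number marks a shared experiment. When the trend of each library on GC content was also removed, 20 members were lower (18% of all genes) and 5 higher (24.9%), the 8 again among the 20, and the median moved to -0.29 for the members and to 0.085 for all genes. The fall of most members was thus larger without the GC adjustment than with it. Without regard to number, both d4 libraries lay below both d2 libraries in 19 members (35.2% of all genes) and above them in 2, Zfp963 and Zfp964 (35.8%).

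**Figure D2:**
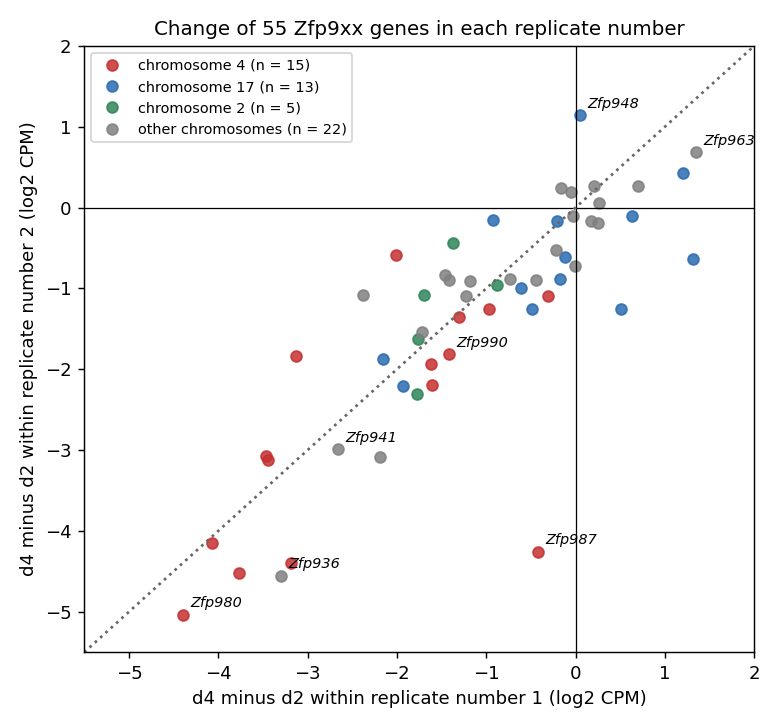
Difference of d4 from d2 (log2 CPM) within replicate number 1 (horizontal axis) and within replicate number 2 (vertical axis) for the 55 tested members, coloured by chromosome, with a dotted line of equal differences. All 15 members on chromosome 4 lie below 0 on both axes, and 6 members lie above 0 on both.

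The members fell into groups by position. They lay on 12 chromosomes, with 16 on chromosome 4, 13 on chromosome 17, 11 on chromosome 2, 9 on chromosome 7 and 5 on chromosome 8. Linking members less than 500 kb apart put 45 of the 64 into 8 groups of neighbours. The 16 on chromosome 4 formed a single group at chr4:145510759-147848366 (GRCm38), a stretch of 2.34 Mb.

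Of the 14 members at least 4-fold lower at d4, 9 lay in the chromosome 4 group. Among all 14932 genes tested, 1495 were at least 4-fold lower. Of the group's 15 tested members, 4 fell with day as the only term (11.3% of all genes did). With the replicate number as a term 15 of 15 fell (23.4%), and 9 with GC adjusted too (18%). The median log2 fold change was -3.03, with a range of -5.50 to -0.93. The 40 members on other chromosomes had a median of -0.75. Of these 40, 4 were lower with day alone (11.3% of all genes) and 20 with the number as a term (23.4%). With GC adjusted too, 11 of the 40 were lower (18%) and 5 higher (24.9%). All 15 of the chromosome 4 group were below d2 in both numbers (43.5% of all genes were). The log2 differences ran from -4.39 to -0.31 within number 1 and from -5.03 to -0.59 within number 2. In 10 of the 15 both d4 libraries lay below both d2 libraries (35.2% of all genes). Added up, the 16 members had 110 CPM in d2 replicate 1, 514 CPM in d2 replicate 2, 33.3 CPM in d4 replicate 1 and 142 CPM in d4 replicate 2. Zfp990 gave 18.7% to 37.2% of that sum.

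Zfp980 (chr4:145670685-145704441), a KRAB gene with 13 fingers, was counted 36 and 214 times at d2 and 0 and 6 times at d4. Both d4 libraries lay far below both d2 libraries, at 0 and 0.353 CPM against 2.94 and 16.2 CPM. The mean fell from 9.60 ± 9.41 to 0.177 ± 0.250 CPM (SD, n = 2 each), and the log2 fold change was -5.50 (edgeR adjusted p = 0.0082, standard error 1.12). DESeq2 gave it an adjusted p of 0.0177.

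Zfp978 (chr4:147361303-147391004) was counted 37 and 131 times at d2 and 1 and 5 times at d4. It fell from 6.49 ± 4.89 to 0.189 ± 0.148 CPM, which is -4.93 on the log2 scale (standard error 0.81, adjusted p = 0.0032), and the days did not overlap. Zfp981 (chr4:146502027-146539395), with 7 fingers, was counted 63 and 183 times at d2 and 2 and 11 times at d4. Its log2 fold change was -4.41 (standard error 0.69, adjusted p = 0.0027), again with no overlap. Zfp982 (chr4:147492417-147513486), the gene tied to the stem cell state, was counted 74 and 183 times at d2 and 5 and 25 times at d4. It fell by 3.31 on the log2 scale (standard error 0.62, adjusted p = 0.0056), from 9.97 ± 5.55 to 0.947 ± 0.741 CPM.

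The next members missed the threshold with day alone. Zfp988 had 1.96 and 12.8 CPM at d2 and 0.0846 and 0.471 CPM at d4, a log2 fold change of -4.57 (adjusted p = 0.0139). Zfp985 had 7.11 and 38.6 CPM at d2 and 0.508 and 4.47 CPM at d4, a change of -3.13 (adjusted p = 0.0464). In both genes the days did not overlap, but the 2 d2 libraries lay further apart than in Zfp982. With the replicate number as a term the adjusted p-values were 6.4e-12 and 5.4e-14. Zfp987, counted 2 and 50 times at d2 and 1 and 1 times at d4, was 29.5-fold lower at d4 (95% counting interval 7.77 to 250, counting error only), with nearly all of its d2 counts in replicate 2. Zfp989 was counted 14 and 16 times at d2 and 0 and 4 times at d4, and Zfp993 was counted 10 and 14 times at d2 and 2 and 2 times at d4, with adjusted p-values of 0.0206 and 0.0129.

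The most abundant members of the group fell less far. Zfp979 had 12.3 and 80.4 CPM at d2 and 3.89 and 20.9 CPM at d4. Zfp984 had 18.9 and 77.1 CPM at d2 and 7.53 and 30.1 CPM at d4. In both, as in Zfp990, d4 replicate 2 lay above d2 replicate 1, so the days overlapped. Their log2 fold changes were -1.88 and -1.34 (adjusted p = 0.170 and 0.216), and with the replicate number as a term the adjusted p-values were 5.3e-10 and 1.4e-07. For Zfp990 the change was -1.76 (standard error 1.10, adjusted p = 0.251, and 2.3e-09 with the number as a term). Zfp992 and Zfp991, whose proteins were 99.0% identical, changed by -1.15 and -0.93 (adjusted p = 0.0338 and 0.404), and Zfp933 by -0.97 (adjusted p = 0.272). With the number as a term and GC adjusted, Zfp979 and Zfp990 passed in edgeR. Zfp984 (-0.47, adjusted p = 0.053), Zfp992 (-0.27, 0.307), Zfp991 (-0.03, 0.937) and Zfp933 (-0.61, 0.058) did not. Zfp989 and Zfp993 did not pass there either.

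**Figure D3:**
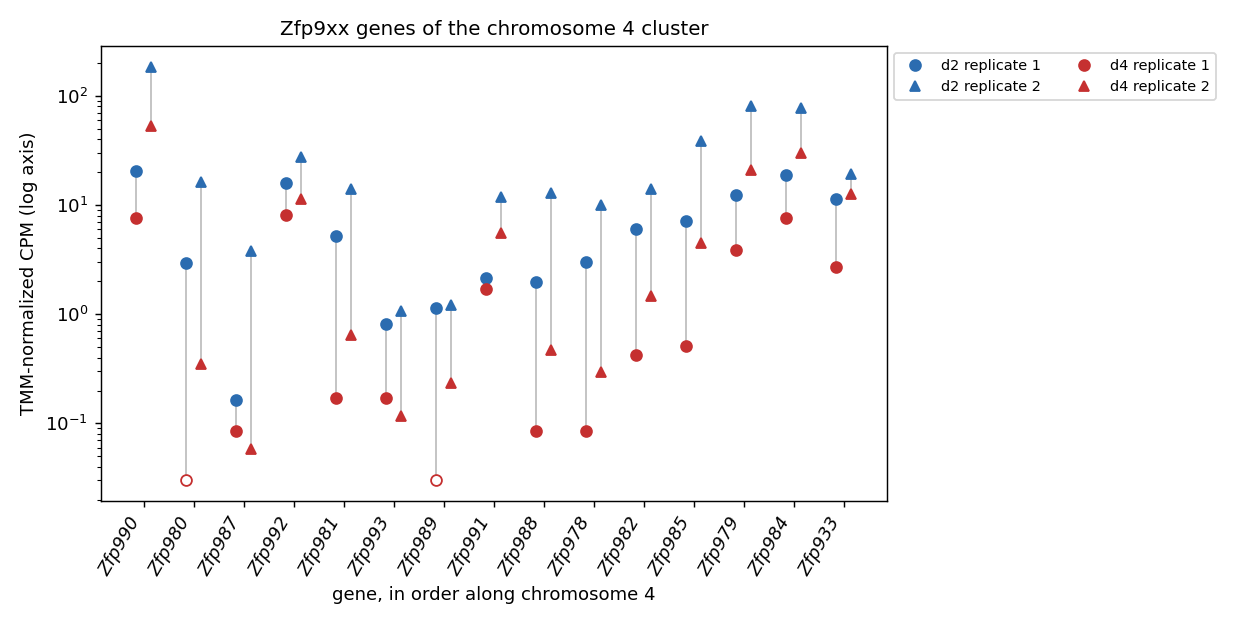
CPM (log axis) of the 15 tested members of the chromosome 4 group in each library, in order along the chromosome, with circles for replicate 1, triangles for replicate 2, blue for d2, red for d4 and grey lines joining the days of a number. Open symbols at the bottom are counts of 0 (Zfp980 and Zfp989, d4 replicate 1), and in every pair the d4 value is the lower.

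Reads that aligned to several places were not counted, so near-identical copies lose reads, and each gene's exons were cut into 75-base windows and compared with all other transcripts. In the chromosome 4 group the share of windows found in no other gene ran from 18.3% (Zfp987) to 100% (Zfp933). The 8 tested members with at least 50% unique windows had a median log2 fold change of -1.82, and the 7 below 50% had -4.57. Among the 4 called with day alone, Zfp982 had 95.1% and Zfp981 had 76.7% unique windows, whereas Zfp980 had 43.9% and Zfp978 33.6%. The counts of the last pair thus rest on a smaller part of their exons, and their levels are uncertain.

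Because these neighbours fell together, their promoters were compared. RefSeq promoters (GRCm38.p6, 250 bases before to 50 after the start) were at hand for 54 members, 10 of them in the chromosome 4 group. The letters TATTGGGCG, searched on both strands, stood in 8 of those 10 and in Zfp947 and Zfp994 on chromosome 17. Of 32851 promoters of the same length 39 (0.119%) held them. The letters were picked after these sequences had been seen, so the count is a description; they contain ATTGG, the reverse complement of the CCAAT box, which 37.4% of all promoters and 41 of the 54 members held. The windows of 30 bases around the match are shown because they let the copies be compared base by base, with the match in capitals, 5′ to 3′ on the gene's strand.
Zfp980: agctggtgagTATTGGGCGggtccagaagg
Zfp982: agctggtgagTATTGGGCGggtccagaagg
Zfp979: agctggtgagTATTGGGCGggtccagtagg
Zfp985: agctgctgagTATTGGGCGggtccagaagg
Zfp988: agctactgagTATTGGGCGggtccagaagg
Zfp987: agctactgagTATTGGGCGtgtccagaagg
Zfp984: agctgctgaaTATTGGGCGggtccagaagg
Zfp981: agctgctgaaTATTGGGCGggttcagaagg
Zfp947: aaccacggttTATTGGGCGggtctaggaga
Zfp994: aagtatggttTATTGGGCGggtctaggaga

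The windows lie at chr4:145670613-145670642 for Zfp980, chr4:147492323-147492352 for Zfp982 and chr4:147642563-147642592 (minus strand) for Zfp979, each just before the gene. Those of Zfp985 (chr4:147553198-147553227), Zfp988 (chr4:147305547-147305576), Zfp987 (chr4:146097218-146097247) and Zfp984 (chr4:147809856-147809885, minus strand) also lie before the gene, and so does that of Zfp994 (chr17:22225734-22225763, minus strand). Those of Zfp981 (chr4:146514814-146514843) and Zfp947 (chr17:22166008-22166037, minus strand) lie inside the gene as GENCODE draws it, whose first start is further upstream. The match began 47 to 96 bases before the RefSeq start in the chromosome 4 genes. The 8 members with it had a median log2 fold change of -3.86, from -5.50 (Zfp980) to -1.34 (Zfp984), so genes with the same letters fell to different depths. The smallest falls of the group were those of Zfp991, Zfp933 and Zfp992. The promoters of Zfp933 and Zfp993 lacked the letters. Zfp993 changed by -2.68, further than Zfp979 (-1.88) and Zfp984 (-1.34), which held them. No promoter was at hand for Zfp991 and Zfp992, nor for Zfp978 (-4.93), Zfp989 (-3.03) and Zfp990 (-1.76). Whether the letters go with the depth of the fall was not tested. On chromosome 17, Zfp947 and Zfp994 did not pass (changes of -0.86 and -0.35, adjusted p = 0.433 and 0.812).

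Among these 8 promoters, pairs shared 59.7% to 89.8% of their bases, with a median of 76.3%. The closest pair was Zfp980 and Zfp979, the first of which changed by -5.50 and the second by -1.88. Their 250 bases before the start are shown to let this pair be read in full, at chr4:145670447-145670696 and chr4:147642509-147642758 (minus strand).
Zfp980: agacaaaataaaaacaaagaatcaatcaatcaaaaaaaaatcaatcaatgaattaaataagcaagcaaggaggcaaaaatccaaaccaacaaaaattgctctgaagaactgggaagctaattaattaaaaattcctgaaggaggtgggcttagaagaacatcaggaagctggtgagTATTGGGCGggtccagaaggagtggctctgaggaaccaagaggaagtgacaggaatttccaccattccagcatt
Zfp979: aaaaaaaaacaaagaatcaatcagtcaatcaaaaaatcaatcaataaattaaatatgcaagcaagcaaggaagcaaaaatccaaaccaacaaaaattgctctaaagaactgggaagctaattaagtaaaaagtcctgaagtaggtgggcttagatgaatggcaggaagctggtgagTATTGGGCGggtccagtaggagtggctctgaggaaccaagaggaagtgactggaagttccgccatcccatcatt

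Off chromosome 4, 4 members fell with day alone. Zfp936 (chr7:43114229-43192109), a KRAB gene with 11 fingers, was counted 26 and 80 times at d2 and 1 and 2 times at d4. Its d4 counts were 40.1-fold lower (95% counting interval 13.3 to 197, counting error only), with no overlap between the days. The edgeR log2 fold change was -5.19 (standard error 0.79, adjusted p = 0.0024). Zfp941 (chr7:140807449-140822178), with 9 fingers, had 22.7 and 31.4 CPM at d2 and 3.47 and 3.82 CPM at d4. It fell by 2.88 on the log2 scale (standard error 0.28, adjusted p = 3.6e-04), from 27.0 ± 6.16 to 3.65 ± 0.250 CPM, the smallest adjusted p of the members. Its GC content was 45.2%, and its 2 d4 libraries nearly coincided.

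Zfp956 (chr6:47953390-47965300) was counted 178 and 164 times at d2 and 51 and 71 times at d4. It fell by 1.67 on the log2 scale (standard error 0.26, adjusted p = 0.0025), and with its GC content of 54.3% it was the one member of the 8 without a higher replicate 2 at d2. Zfp972 (chr2:177903340-177925613) was counted 15 and 23 times at d2 and 3 and 4 times at d4, a fall of 2.57 (standard error 0.51, adjusted p = 0.0073, and 0.0223 by DESeq2). In all 4 genes both d4 libraries lay below both d2 libraries. Neither Zfp956 nor Zfp972 showed the KRAB pattern searched, and the 139-residue protein of Zfp972 showed no finger.

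With the replicate number as a term, 16 further members off chromosome 4 passed as lower. Once GC was adjusted as well, only Zfp930, Zfp937, Zfp940, Zfp946, Zfp951, Zfp960 and Zfp970 of these 16 still passed. Zfp951 had 2.45 and 7.59 CPM at d2 and 0.423 and 0.765 CPM at d4, a change of -3.02. Zfp946, on chromosome 17, had 12.7 and 55.7 CPM at d2 and 3.22 and 11.9 CPM at d4, a change of -2.15, and d4 replicate 2 lay just under d2 replicate 1. Zfp960 changed by -1.92, Zfp937 by -1.70 and Zfp953 by -1.39. The adjusted p-values with the number as a term were 2.8e-08 for Zfp951, 2.7e-11 for Zfp946, 4.3e-09 for Zfp960, 4.9e-06 for Zfp937 and 1.3e-05 for Zfp953. Only 24.7% of the windows of Zfp960 were unique, so its level is uncertain.

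The other 11 changed by -1.23 to -0.67. They were Zfp970, Zfp930, Zfp938, Zfp944, Zfp958, Zfp931, Zfp976, Zfp959, Zfp940, Zfp932 and Zfp971. Zfp930, an abundant member of chromosome 8, had 32.1 and 105 CPM at d2 and 13.6 and 48.8 CPM at d4. Zfp940 was counted 348 and 478 times at d2 and 201 and 333 times at d4, and its days did not overlap in CPM. Zfp932, the gene of the retrovirus-binding protein, had 9.40 and 32.2 CPM at d2 and 6.86 and 17.2 CPM at d4, and its change of -0.78 became 0.023 once GC was adjusted within the numbers.

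Zfp963 and Zfp948 were the 2 members that rose with the number as a term. Zfp963 (chr8:69741639-69749970), with 7 fingers, was counted 27 and 47 times at d2 and 69 and 99 times at d4. It was higher at d4 in both numbers and the days did not overlap, and the log2 fold change was 1.01 (standard error 0.33, adjusted p = 0.0508, or 0.0030 with the number as a term). Of its exon bases, 40.8% lay in exons of another gene on the same strand, where reads were not counted. Only 62.3% of its windows were unique, so its level is uncertain. Zfp948 (chr17:21567008-21588699), with 15 fingers, had 6.13 and 15.9 CPM at d2 and 6.35 and 35.5 CPM at d4. Its difference was 0.05 within number 1 and 1.15 within number 2, so the rise came from replicate 2, and without d4 replicate 2 its log2 fold change was -0.80 instead of 0.93. With GC adjusted as well, Zfp950, Zfp975 and Zfp983 also passed as higher, at 0.79, 0.91 and 1.40. Zfp983, next to Zfp948, had 2.37 and 6.00 CPM at d2 and 5.67 and 8.12 CPM at d4.

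**Figure D4:**
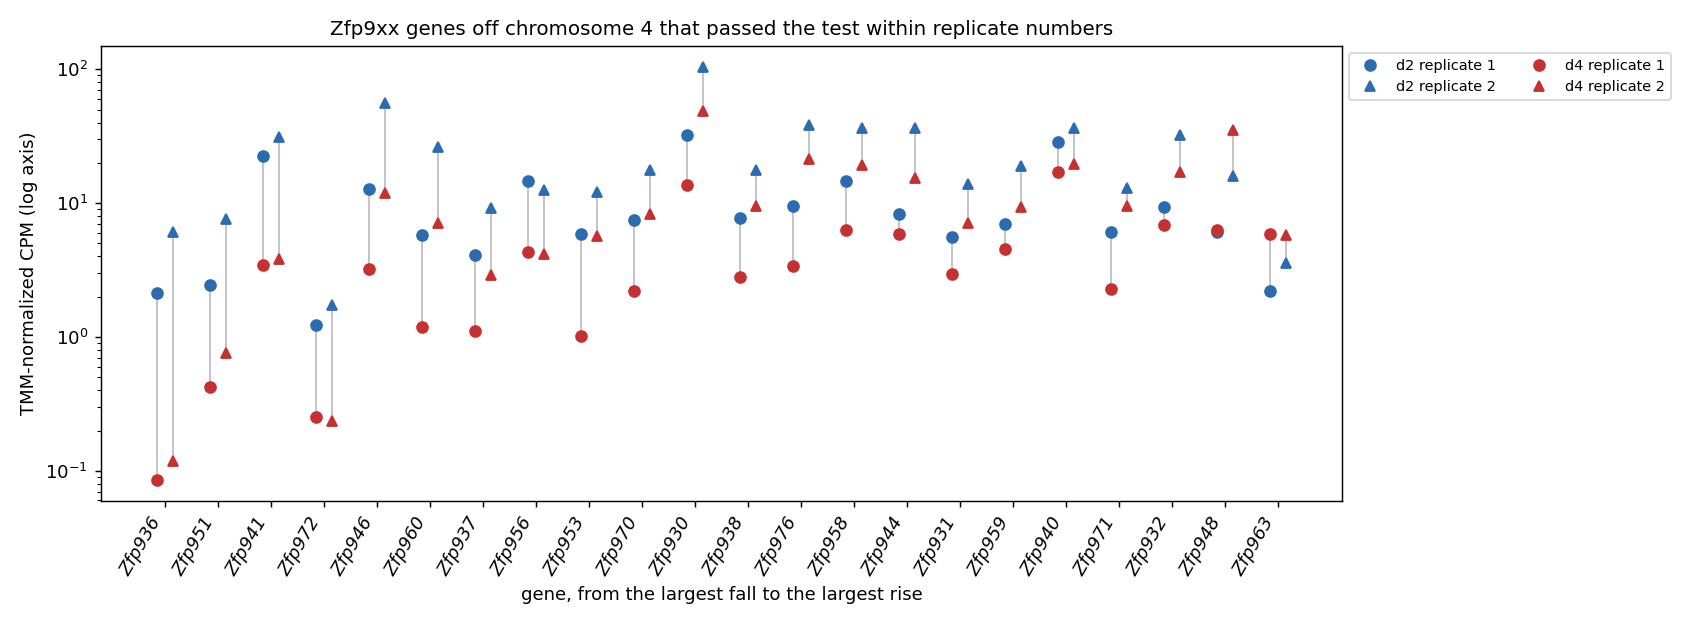
CPM (log axis) in each library of the 22 members off chromosome 4 that passed with the replicate number as a term, from the largest fall (Zfp936) to the largest rise (Zfp963), with circles for replicate 1, triangles for replicate 2, blue for d2, red for d4 and grey lines joining the days of a number. For the 20 lower members the d4 value is the lower in both numbers, and for Zfp948 the 2 circles nearly touch at 6.13 and 6.35 CPM.

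By chromosome, the members that passed were as follows. On chromosome 17, 10 of the 13 members were neighbours at chr17:21567008-22867134, a stretch of 1.30 Mb. None of the 13 passed with day alone by edgeR (median change -0.52), while 4 were lower and 1 higher with the number as a term, where 23.4% and 23.3% of all genes were. With GC adjusted as well 2 were lower (18% of all genes) and 2 higher (24.9%), and the median turned to 0.29. Zfp945, with 18 fingers, had 10.7 and 50.2 CPM at d2 and 5.59 and 45.1 CPM at d4, and Zfp942 had 6.54 and 38.3 CPM at d2 and 6.01 and 25.0 CPM at d4. In both the gap between replicates was wider than that between days. On chromosome 2 all 5 tested members were lower with the number as a term (median change -1.23), and on chromosome 7 it was 4 of 9 (median change -0.44). With GC adjusted these became 3 lower on chromosome 2 (median -0.84), and 3 lower and 1 higher on chromosome 7 (median -0.14). Of the 13 members elsewhere, 7 were lower and 1 higher with the number as a term, and 3 lower and 2 higher with GC adjusted. For each of these counts, the shares of all genes were 23.4% lower and 23.3% higher with the number as a term. With GC adjusted they were 18% and 24.9%.

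The 18 members that passed in neither test included some of the steadiest. Zfp961 had 62.7 and 93.2 CPM at d2 and 53.9 and 64.7 CPM at d4, a change of -0.39 (standard error 0.25, adjusted p = 0.262). Zfp954 had 13.2 and 12.5 CPM at d2 and 12.9 and 11.5 CPM at d4, and Zfp949 had 11.4 and 15.1 CPM at d2 and 13.5 and 13.2 CPM at d4, changes of -0.07 and 0.01 with standard errors of 0.23 and 0.25. Zfp952 and Zfp974 changed by 0.23 and 0.15. For Zfp934 and Zfp943, at -0.06 and -0.16, the standard errors of 0.58 and 0.68 leave changes of either sign.

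Per kilobase of exon, the most abundant members at d2 were Zfp990 (29.4 CPM per kb), Zfp961 (18.0), Zfp984 (16.5), Zfp930 (13.1) and Zfp979 (11.3), ahead of Zfp958 (10.7), Zfp946 (9.76) and Zfp944 (8.06). At d4 the order was Zfp961 (13.7 CPM per kb), Zfp990 (8.63), Zfp948 (7.89), Zfp984 (6.46), Zfp930 (5.99), Zfp958 (5.40), Zfp954 (5.11) and Zfp952 (4.37). The sets share 5 genes. Because the replicates of Zfp990, Zfp984, Zfp930 and Zfp979 lay several-fold apart, neighbours in the d2 order do not differ beyond their spread.

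Of the 9 members that did not pass the filter (a proportion test at 0.5 CPM in a day), 8 had at most 24.0% unique windows. Zfp935, Zfp957, Zfp965, Zfp967 and Zfp969 had 0 counts in all 4 libraries, which allows up to 0.254 CPM in the shallowest one. Zfp966 had 1 count in all, Zfp968 had 3 and Zfp973 had 4, both of its d2 libraries being at 0. Zfp986, in the chromosome 4 group, was counted 3 and 16 times at d2 and 2 and 3 times at d4. The 6 on chromosome 2 had 0% to 24.0% unique windows, and the proteins of Zfp965 and Zfp973, of Zfp966 and Zfp967 and of Zfp968 and Zfp969 were 100% identical. All exon bases of Zfp935 lay in exons of another gene on the same strand, where reads were not counted. Zfp957 was the exception, with 100% unique windows and 0 counts. For Zfp965, Zfp967 and Zfp969, silence and reads lost to a copy cannot be told apart from these counts. The 0 of Zfp935 cannot show whether it was silent, since reads in its exons were left out.

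**Figure D5:**
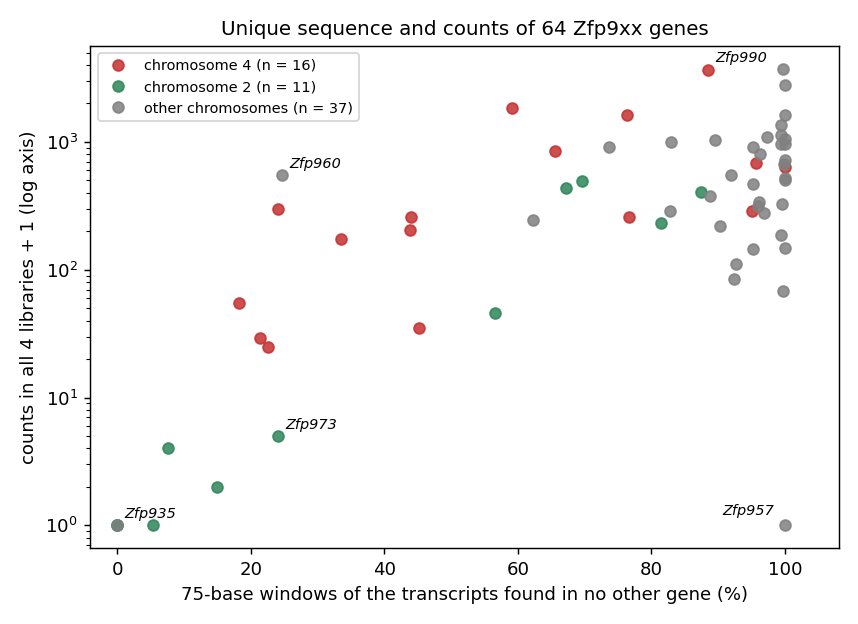
Counts in all 4 libraries plus 1 (log axis) against the share of 75-base windows found in no other gene (%) for all 64 members, coloured by chromosome. The 6 chromosome 2 members at the lower left have at most 4 counts and at most 24.0% unique windows, and Zfp957 stands alone at the lower right with 0 counts and 100%.

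The members shared their protein plan. Of 64 genes 63 were annotated as protein coding and 1, Zfp939, as a transcribed pseudogene. A coding sequence could be read for 61, with a median of 492 residues. A KRAB pattern (D, V, any 3 residues, F, any 3, E or Q, then W) was found in 54 of the 61, and the median number of fingers was 11, up to 21 in Zfp974. Zfp935, Zfp957, Zfp972 and Zfp993 had 0 fingers by the pattern used. Protein pairs within the chromosome 4 group had a median identity of 51.3%, and pairs on different chromosomes 34.9%. Zfp936 and Zfp977, in the same position group on chromosome 7 with other members between them, were 77.0% identical. Yet Zfp936 fell, while Zfp977 was counted 6 and 22 times at d2 and 5 and 34 times at d4.

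Of 31 genes for partners through which KRAB proteins act, 5 fell (11.3% of all genes did), 2 rose (12.9%) and 24 did not pass with day alone, and the median change was -0.71. With the number as a term 20 fell (23.4% of all genes) and 2 rose (23.3%), and with GC adjusted as well 13 fell (18%) and 3 rose (24.9%). Trim28, the common partner, had 1280 ± 232 CPM at d2 and 748 ± 109 CPM at d4 (log2 fold change -0.78, standard error 0.22, edgeR adjusted p = 0.0288, and 1.1e-04 with the number as a term). Setdb1, the methyltransferase, had 179 ± 0.697 and 174 ± 7.80 CPM (log2 fold change -0.04, standard error 0.18, adjusted p = 0.885).

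The cofactors that passed with day alone included 3 DNA methylation genes. Dnmt3b, a de novo methyltransferase, fell by 4.19 on the log2 scale (adjusted p = 5.3e-05), Dnmt3l, its cofactor without enzyme activity, fell by 6.95 (adjusted p = 9.0e-05) and Dnmt3a fell by 1.04 (adjusted p = 0.0059). Dnmt1 and Uhrf1, which maintain DNA methylation, did not pass, with changes of 0.17 and -0.06 (adjusted p = 0.584 and 0.846). Pphln1, of the HUSH silencing complex, fell by 1.37 (adjusted p = 0.0022), and Cbx1, which encodes an HP1 protein, by 1.12 (adjusted p = 0.0044). Chd3, a remodeller of the NuRD complex, rose by 1.85 (adjusted p = 0.0017), and Suv39h1, another H3K9 methyltransferase, by 0.99 (adjusted p = 0.0091). With 1 d2 library left, edgeR called 0 cofactors, without d2 replicate 1 as without d2 replicate 2. At an unadjusted p under 0.05, 11 were then lower and 3 higher without d2 replicate 1, and 10 lower and 2 higher without d2 replicate 2. Without d4 replicate 1, 3 were called lower and 1 higher, and without d4 replicate 2, 13 lower and 2 higher.

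Among the 283 other Zfp genes tested, 25 rose (12.9% of all genes did) and 11 fell (11.3%) with day alone. With the number as a term 49 rose (23.3% of all genes) and 83 fell (23.4%). With GC adjusted as well 54 rose (24.9%) and 47 fell (18%), with a median change of 0.0026. Their median GC content was 46.4% against 38.8% for the members, and 48.4% of them were higher in replicate 2 on both days against 85.5% of the members.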

How the data were processed

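RNA-seq of 2 d2 and 2 d4 libraries of ES-E14TG2a cells was used. Per the labels and the study's methods, the authors trimmed 75-base paired reads with cutadapt, aligned them to mm10 (GRCm38) with STAR and counted reads per gene with featureCounts. The deposited table holds raw counts, one column per library, with no normalization. By the study's methods, counting was by strand (reverse setting), and reads that aligned to several places or overlapped exons of several genes were left out. The samples' labels name a forward-strand table whereas the deposited one is named for the reverse strand, the setting in the methods. The study names the annotation in more than one way.

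The members were rows whose Ensembl ID maps to a symbol of Zfp9 with 2 further digits; 55141 of 55487 IDs had a symbol. The members and lists were chosen with earlier results of these data known. Coordinates, exon lengths and GC content came from GENCODE (GRCm38), promoters from RefSeq (GRCm38.p6).

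Genes passing a proportion test at 0.5 CPM in a day (adjusted p under 0.05) were kept, 14932 in all. Counts were scaled by TMM and tested for day with edgeR 4.0.16 (quasi-likelihood, two-sided, R 4.3.3) and Benjamini-Hochberg adjustment over all genes kept, with a threshold of 0.01. CPM values are TMM-scaled, and log2 differences within a number or a day carry a prior count of 2. Ratios resting on 3 or fewer counts at d4 have a 95% interval for counting error. Totals were 11397439 to 16851485 counts, and 3 counts were taken as the floor. With 2 libraries a day an exact permutation test cannot go below p = 0.333, so p-values come from the fit across all genes. The replicates came from 2 differentiation experiments per the study, but no source ties a number to an experiment.

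Members were named if they passed with or without the replicate number as a term, were among the 8 most abundant per length on either day, were among the 4 with the largest replicate difference, or reached a mean of 5 CPM. Others were named after their values were seen. Unique windows were those whose 75 bases occur in no other gene's transcripts. Fingers were C, 2 residues, C, 12 residues, H, 3 to 5 residues, H. Alternatives were DESeq2 1.42.0, limma voom 3.58.1, other scalings and filters, a threshold of 0.05, the number as a term, GC adjustment by loess, and each library left out.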

Additional observations from a re-analysis of the deposited data

How the results depend on the processing

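The count of members called depended on the processing, the direction of the 8 members called with day alone did not. The 8 called members stayed below 0 under every alternative run. Of these calls, that of Zfp972 ended under DESeq2 (adjusted p = 0.0223), that of Zfp980 with DESeq2's size factors (0.0140), DESeq2 (0.0177) and limma voom (0.0263), that of Zfp982 under limma voom (0.0101), and all 8 when either d2 library was left out, where the lone d2 library is assumed to vary as d4 did and no member, cofactor or other Zfp gene passed by edgeR. The number of members lower was 7 with DESeq2's size factors, 11 with upper-quartile factors, 29 without a filter, 9 with filterByExpr, 8 under DESeq2, 6 under limma voom, 16 at an adjusted p under 0.05 and 12 with GC correction (2 higher). Without a filter 1 member was higher. With each library left out, 0 to 36 were lower and 0 to 1 higher. The median log2 fold change of the members was -1.06 with upper-quartile factors, -0.95 without a filter and with filterByExpr, -1.004 under limma voom, -0.28 with GC correction and -2.05 to -0.054 with each library left out. The causes were not tested.

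Replicate numbers were shared by d2 and d4. Across all genes tested, the differences of replicate 2 from replicate 1 at d2 and d4 had a correlation of 0.48, but although the study names 2 differentiation experiments, no source ties a number to an experiment, so with 2 pairs the libraries share only a number. The fit with a replicate block gave 35 members lower and 2 higher, a median of -1.04, 20 cofactors lower, and 83 other Zfp genes lower and 49 higher. With block and GC correction together these were 20 lower and 5 higher, -0.29, 13 cofactors lower, and 47 lower and 54 higher. The block turned no member's direction.

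For the cofactors, 14 were lower without a filter, 12 at an adjusted p under 0.05 and 10 with GC correction, and 1 was higher with DESeq2's size factors or upper-quartile factors; with each library left out 0 to 13 were lower and 0 to 2 higher. For the other Zfp genes, 20 were lower with upper-quartile factors, 52 without a filter, 25 under DESeq2, 37 (41 higher) at an adjusted p under 0.05 and 34 (43 higher) with GC correction, and with each library left out 0 to 71 were lower and 0 to 26 higher.

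Some members not called with day alone changed sign. Of those, Zfp932, Zfp944, Zfp948, Zfp976, Zfp979, Zfp990 and Zfp991 had passed with the replicate number as a term. With block and GC correction the log2 fold change was 0.023 for Zfp932, 0.64 for Zfp934, 0.29 for Zfp942, 0.52 for Zfp943, 0.43 for Zfp945 and 0.53 for Zfp994, and with GC correction alone 0.014, 0.65, 0.23, 0.54, 0.50 and 0.46. It was 0.042 for Zfp934 and 0.47 for Zfp994 under limma voom, and -0.070 for Zfp949 with upper-quartile factors. With each library left out it ran from -1.60 to 0.34 for Zfp932, -0.81 to 0.90 for Zfp934, -1.90 to 1.23 for Zfp942, -1.32 to 0.90 for Zfp943, -1.94 to 0.34 for Zfp944, -2.45 to 1.24 for Zfp945, -0.80 to 1.76 for Zfp948, -0.18 to 0.19 for Zfp949, -0.79 to 0.85 for Zfp950, -0.038 to 0.52 for Zfp952, -0.16 to 0.016 for Zfp954, -0.13 to 0.46 for Zfp974, -1.24 to 1.69 for Zfp975, -2.82 to 0.38 for Zfp976, -3.57 to 0.014 for Zfp979, -3.75 to 0.55 for Zfp990, -2.05 to 0.76 for Zfp991 and -1.60 to 2.75 for Zfp994.

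Depth limits the members with few counts: at d4 the called Zfp936 rests on 3 counts and the called Zfp980 on 6.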

Other observations

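Genes of other names lie between the members of the chromosome 4 group. Of these, 14 were tested, and all 14 had a log2 fold change below 0, with a median of -1.94. With day alone 4 fell by edgeR (11.3% of all genes), and 10 with the replicate number as a term (23.4%). Zfp600, a zinc finger gene, was counted 21 and 69 times at d2 and 0 and 5 times at d4, a log2 fold change of -4.29 (adjusted p = 0.0096). Gm13147, a transcribed pseudogene, was counted 48 and 164 times at d2 and 5 and 5 times at d4, a log2 fold change of -4.52 (adjusted p = 0.0026). Rex2 was counted 11 and 69 times at d2 and 0 and 3 times at d4, a log2 fold change of -4.79 (adjusted p = 0.0175, past the threshold with the number as a term). Gm20707, a long noncoding RNA counted 177 and 203 times at d2 and 112 and 176 times at d4, changed least but for a pseudogene, by -0.59 (adjusted p = 0.0861).

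The promoters of the chromosome 4 members held few CpG dinucleotides, with a median of 4.5 per 300 bases against 8 in the other members and 7 over all promoters. The GC box GGGCGG, searched on both strands, was found in 19 of 54 members with a promoter and in 35.7% of all promoters.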
